A study of Homo sapiens with 46 samples.

Results

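The mitochondrial genome encodes 2 ribosomal RNAs, the 12S rRNA of the small mitochondrial ribosomal subunit (MT-RNR1, ENSG00000211459) and the 16S rRNA of the large subunit (MT-RNR2, ENSG00000210082). They were chosen by name from the gene count table and are 2 of its 58735 genes, beside 35 other genes of the mitochondrial DNA. Both were measured in all 46 libraries and both passed the filter on low counts. In the study, translation of single mitochondrial mRNAs was blocked in HEK293T cells, a human embryonic kidney cell line of wild-type genotype. Blocking was done with chimeras of a morpholino antisense oligonucleotide and pCox4, the presequence of yeast Cox4 that directs its cargo into mitochondria. Cells were exposed to 2 µM chimera for 48 h, with a membrane-permeating transfection peptide. The 11 chimeras were each directed against the start region of an mRNA, namely ND1, ND2, ND3, ND4L or ND5 of complex I, CYTB of complex III, COX1, COX2 or COX3 of complex IV, or ATP6 or ATP8 of the ATP synthase. The control cells received the pCox4 presequence without a morpholino for 48 h. There were 4 libraries per condition, except for COX2 and ND2 with 3 each. Replicates 1 and 2 were prepared in a first batch and replicates 3 and 4 in a second, on other days and with other reagents.

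Mitochondrial DNA is transcribed into long polycistronic RNAs, and the rRNAs and mRNAs are released from them where the flanking tRNAs are cut out. The 12S and 16S rRNAs lie next to each other near the start of the heavy-strand transcript, upstream of ND1, and in living cells they are far more abundant than any single mitochondrial mRNA. Each mitochondrial ribosome holds a single copy of both. Unlike cytosolic rRNA, the mitochondrial rRNAs can carry short adenine tails. The libraries were enriched for polyadenylated RNA, so the values below count the rRNA that passed this selection. They do not measure the total rRNA pool. As these are bulk samples, a change in part of the cells, in the number of mitochondrial genomes or in rRNA per genome cannot be told apart here. For COX1 silencing, the study reported that the abundance of mitochondrial DNA was unaffected.

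On the mitochondrial chromosome of GRCh38, on the strand given as + by the annotation, MT-TF (the phenylalanine tRNA gene) spans positions 577 to 647, MT-RNR1 648 to 1601, MT-TV (the valine tRNA gene) 1602 to 1670, MT-RNR2 1671 to 3229, MT-TL1 (a leucine tRNA gene) 3230 to 3304 and MT-ND1 3307 to 4262. Each rRNA gene is a single exon without UTRs. The 12S rRNA has 954 bases and the 16S rRNA 1559. Because the selection step rests on adenines, the last 30 bases of each rRNA and the 30 bases around its longest internal run of adenines are shown, from the GENCODE v29 transcripts, 5′ to 3′, with the adenine run in capitals. The ends lie at chrM:1572-1601 and chrM:3200-3229, and the runs at chrM:981-1010 and chrM:2446-2475.
12S, 3′ end: aagtgtactggaaagtgcacttggacgaac
16S, 3′ end: tatacccacacccacccaagaacagggttt
12S, longest adenine run: cacctgagttgtAAAAAActccagttgaca
16S, longest adenine run: aaggaaaggttAAAAAAAgtaaaaggaact
Neither encoded 3′ end finished in an adenine. The longest internal run was 6 adenines in 12S and 7 in 16S, and runs of 5 or more occurred 1 time in 12S and 7 times in 16S. Adenine made up 33.0% of the 12S and 35.1% of the 16S sequence.

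The sites of the chimeras that accompanied the largest rRNA differences, and the ND1 site next to the rRNA genes, are printed below from the same transcripts, placed by the morpholino positions in the study's methods, counted from the first base of the annotated gene. Capitals mark the longest run that the site shares with either rRNA on the same strand. The sites lie at chrM:8371-8393 (ATP8), chrM:8517-8541 (ATP6), chrM:7586-7608 (COX2), chrM:4481-4498 (ND2) and chrM:3307-3323 (ND1).
ATP8: ccAACTAAAtactaccgtatggc
ATP6: gagaaccaaaatgAACGAAAatctg
COX2: atggcacatgcAGCGCAAGTAgg
ND2: ggcccaaCCCGTCAtcta
ND1: ATACCCAtggccaacct
The 11 sites were 17 to 25 bases long, and the longest run shared with an rRNA was 6 to 10 bases. The longest, 10 bases, joined the COX2 site and 12S. The ND1 site began 2 bases after the end of MT-TL1 and 77 bases after the end of MT-RNR2.

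Library totals ranged from 18876395 to 28121898 counts, except for COX3 replicate 4 with 100698084 counts. Genes of the mitochondrial DNA took between 3.80% and 5.34% of the counts. The epithelial keratins KRT8 and KRT18 and the intermediate filament VIM were high in every library (medians of 404, 104 and 412 CPM), while the kidney factor PAX2 (7.32 CPM) and the neurofilament NEFM (0.970 CPM) were low. The 5 markers of blood, liver, islet, muscle and endothelium summed to at most 1.30 CPM in any library. The targeted mRNA fell past the test upon COX1, COX3 and CYTB silencing (log2 fold changes of -1.34, -0.50 and -0.32) and rose upon ND1, ND2 and ND3 silencing (0.79, 1.02 and 0.80), with the other 5 not called. The chimeras block translation, so this level does not by itself check a label.

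Levels are given as CPM, the count of a gene relative to its library's total after TMM scaling. The 12S rRNA was at 661, 662, 679 and 609 CPM in control replicates 1 to 4, and the 16S rRNA at 3515, 3491, 4089 and 3741 CPM. Per kilobase of transcript, the controls held 684 ± 31.5 CPM of 12S (SD, n = 4) and 2379 ± 178 CPM of 16S (SD, n = 4). Over all 46 libraries, 12S ranged from 517 CPM (ND2 replicate 4) to 1271 CPM (ATP8 replicate 2) and 16S from 2599 CPM (ND2 replicate 1) to 5238 CPM (COX2 replicate 4). At least 11810 reads lay behind every 12S value and 62117 behind every 16S value. Reads of 50 bases cannot be told apart where 16S is copied elsewhere: 14.0% of the 50-base windows of 16S also occurred in a transcript of 5 nuclear MTRNR2L genes, and none of the 905 windows of 12S occurred in another annotated transcript. All MTRNR2L genes together held 4 to 88 counts per library, at most 0.0499% of the 16S count. The handling of reads matching several places is not given, so these counts do not show how many 16S reads were lost or gained. The windows also take each read singly, whereas the study describes paired-end sequencing.

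**Figure D1:**
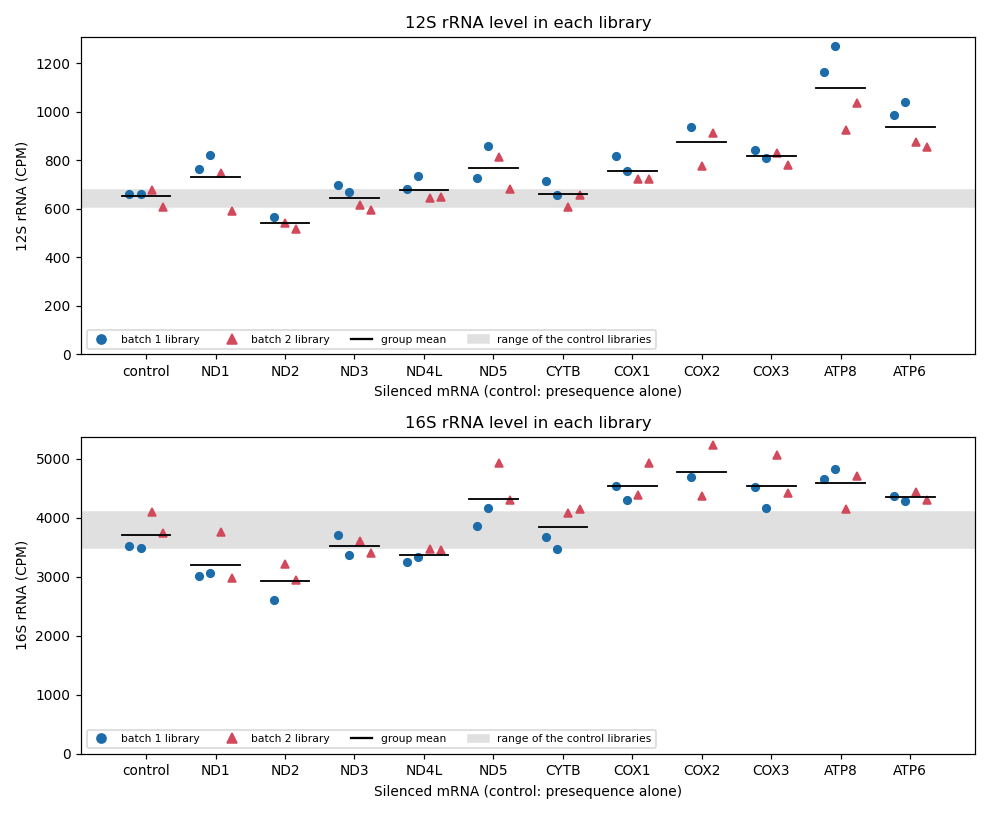
Level of 12S (top) and 16S (bottom) in CPM for each of the 46 libraries, by silenced mRNA. Circles are batch 1, triangles batch 2, lines the group means and the grey band the range of the 4 control libraries; all ATP8, ATP6, COX1, COX2, COX3 libraries lie above the band for both rRNAs and all ND2 libraries below it.

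Both rRNAs differed among the 12 conditions. In edgeR's quasi-likelihood test over the 11 treatments together, with batch as a term and Benjamini-Hochberg adjustment over 20272 genes, the adjusted p was 2.8e-17 for 12S and 1.4e-13 for 16S, where 0.464% of genes passed. Against control, 12S rose upon silencing of ATP8, ATP6, COX2 and COX3. The 16S rRNA rose upon silencing of COX2, ATP8, COX3 and COX1 and fell upon ND2 silencing. For neither rRNA did the test call ND1, ND3, ND4L, ND5 or CYTB silencing. The 11 comparisons share the same 4 control libraries, so they are not independent of each other.

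Upon silencing of ATP8, a small membrane subunit of the ATP synthase, 12S was at 1164, 1271, 924 and 1038 CPM in replicates 1 to 4. Every one of these libraries lay above every control library, as did 1.66% of all genes tested. The difference was the largest seen for either rRNA, 1.68-fold with a log2 fold change of 0.75 ± 0.06 (SE, n = 4 against 4, edgeR adjusted p = 2.6e-12). It had the lowest p of all genes tested in this comparison, where 0.0592% of genes passed. The 16S rRNA was at 4657, 4824, 4141 and 4703 CPM in the same libraries, again all above the controls, with a smaller log2 fold change of 0.31 ± 0.06 (SE, edgeR adjusted p = 0.024). In batch 1 alone the 12S difference was 0.88 and in batch 2 alone 0.61 on the log2 scale, and the difference between batches did not pass (edgeR adjusted p = 0.67). The 16S call was lost in 6 of the 8 fits that each left out 1 library, namely control replicate 1, 2 or 4 or ATP8 replicate 1, 2 or 4, with log2 fold changes of 0.26 to 0.32 and adjusted p up to 0.17.

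Upon silencing of ATP6, the subunit that forms the proton path of the ATP synthase and is read from the same mRNA as ATP8, 12S was at 985, 1040.05, 874 and 853 CPM. All 4 libraries lay above the controls, as did 1.48% of genes. The log2 fold change was 0.52 ± 0.06 (SE, n = 4 against 4, edgeR adjusted p = 6.5e-07). Only 2 of 20272 genes (0.00987%) passed in this comparison, and 12S had the lower p. The 16S libraries at 4370, 4283, 4432 and 4302 CPM were also all above the controls, but the log2 fold change of 0.23 ± 0.06 (SE) was not called (edgeR adjusted p = 0.22). Set side by side, a pair chosen after the values were seen, 12S was 0.23 ± 0.06 (SE, log2) higher upon ATP8 than upon ATP6 silencing, which was not called (edgeR adjusted p = 0.99, unadjusted p = 5.5e-04), where 0% of genes passed.

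The COX2 chimera blocks the subunit of cytochrome c oxidase that takes up electrons from cytochrome c. The 12S rRNA was at 939, 776 and 913 CPM in replicates 2, 3 and 4, all above the controls (3.56% of genes were). Its log2 fold change of 0.45 ± 0.07 (SE, n = 3 against 4, edgeR adjusted p = 2.8e-04) had the lowest p of all genes, where 0.454% of genes passed. The 16S rRNA was at 4696, 4366 and 5238 CPM, with a log2 fold change of 0.35 ± 0.07 (SE, edgeR adjusted p = 0.0060). All 3 libraries lay above the controls for both rRNAs. The 16S call was lost without control replicate 4 (0.34, adjusted p = 0.058) or COX2 replicate 2 (0.33, adjusted p = 0.068) in the edgeR fit.

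Upon silencing of COX3, another core subunit of cytochrome c oxidase, 12S was at 845, 812, 829 and 779 CPM and 16S at 4527, 4168, 5054 and 4416 CPM. No COX3 library overlapped the controls for either rRNA (1.83% of genes lay above). The log2 fold changes were 0.32 ± 0.06 for 12S (SE, edgeR adjusted p = 0.0053) and 0.29 ± 0.06 for 16S (SE, edgeR adjusted p = 0.020), where 0.291% of genes passed. Replicate 4, the deepest library of the series, had the lowest 12S level of the group, and thinning it to 23345508 counts left both calls in place. The 16S call was lost without control replicate 1, 2 or 4 or COX3 replicate 1 or 3, with log2 fold changes of 0.26 to 0.28 and edgeR adjusted p of 0.067 to 0.11.

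COX1 is the catalytic subunit of the same enzyme. Upon its silencing 12S was at 819, 757, 724 and 724 CPM and 16S at 4541, 4292, 4386 and 4934 CPM, all above the controls (1.24% of genes lay above). Here 16S was called, with a log2 fold change of 0.29 ± 0.06 (SE, edgeR adjusted p = 0.038, 0.0543% of genes passed), and 12S was not, at 0.21 ± 0.06 (SE, edgeR adjusted p = 0.35). The 16S call was lost without control replicate 1, 2 or 4 or COX1 replicate 1, 2 or 4, with log2 fold changes of 0.27 to 0.31 and adjusted p up to 0.21. By another assay, nanoString, the study measured mitochondrial mRNAs and rRNAs upon COX1 silencing. It described no significant change up to 48 h for transcripts other than COX1. The assays were not compared here.

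Silencing of ND2, a membrane subunit of complex I, was the single condition in which both rRNAs lay below all controls. The 12S rRNA was at 565, 540 and 517 CPM in replicates 1, 3 and 4, and 16S at 2599, 3217 and 2945 CPM, whereas 2.38% of all genes lay entirely below. The log2 fold change was -0.36 ± 0.07 for 16S (SE, n = 3 against 4, edgeR adjusted p = 0.0091, 0.0247% of genes passed) and -0.25 ± 0.07 for 12S, which was not called (SE, edgeR adjusted p = 0.65). When only the ND2 and control libraries were fitted, 12S passed as well (-0.26, edgeR adjusted p = 0.0027). The 16S call was lost without control replicate 3, ND2 replicate 1 or ND2 replicate 4 (-0.33, -0.31 and -0.35, adjusted p up to 0.50).

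Silencing of ND1, the complex I subunit encoded next to the rRNA genes, left the rRNAs on different sides of control. The 12S rRNA was at 764, 824, 748 and 591 CPM, 3 libraries above and 1 below the controls of its batch. The 16S rRNA was at 3015, 3060, 3758 and 2984 CPM, with 3 libraries below the controls of their batch and 1 between them. Neither the log2 fold change of 0.16 ± 0.06 for 12S (SE, edgeR adjusted p = 0.27) nor that of -0.21 ± 0.06 for 16S (SE, edgeR adjusted p = 0.14) was called, where 0.0888% of genes passed.

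For the other complex I targets and for CYTB, the subunit of complex III, no call was made. Upon ND5 silencing 12S was at 682 to 858 CPM, with all 4 libraries above every control (1.75% of genes were). The 16S rRNA was at 3854 to 4924 CPM and overlapped the controls. The 12S and 16S log2 fold changes were 0.24 ± 0.06 and 0.22 ± 0.06 (SE, edgeR adjusted p of 0.097 and 0.16, 0.163% of genes passed). DESeq2 called this 12S difference (adjusted p = 0.041), and edgeR did without ND5 replicate 1 (0.29, adjusted p = 0.032). Upon ND4L silencing 16S lay below all controls at 3255 to 3461 CPM (2.26% of genes did), with a log2 fold change of -0.14 ± 0.06 that was not called (SE, edgeR adjusted p = 0.31, 0.118% passed), and 12S ranged from 646 to 734 CPM. The ND3 libraries (594 to 697 CPM of 12S and 3373 to 3712 CPM of 16S) and the CYTB libraries (608 to 714 and 3477 to 4149 CPM) overlapped the controls. Their log2 fold changes were between -0.07 and 0.05, with 0.0148% and 0.543% of genes called. The 95% intervals of the 12S difference were -0.14 to 0.10 for ND3 and -0.11 to 0.13 for CYTB, which leaves out a change of the size seen upon COX3 silencing.

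**Figure D2:**
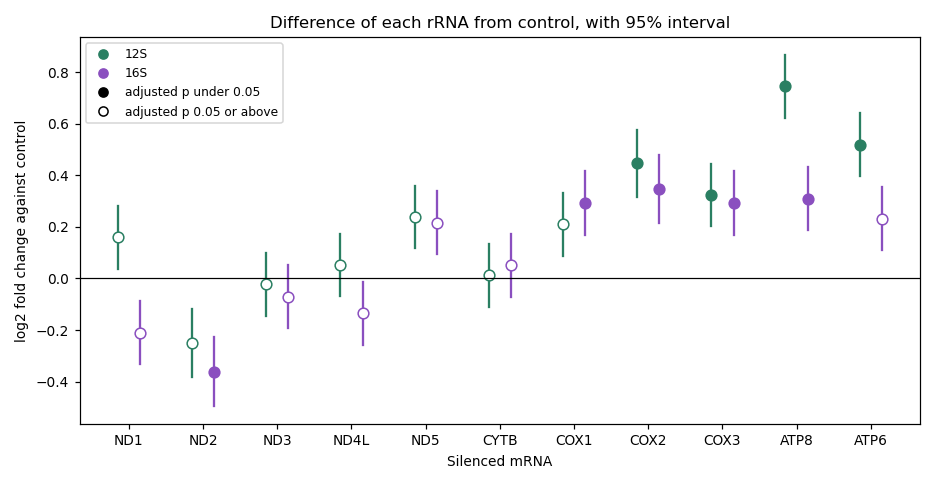
Log2 fold change of 12S (green) and 16S (purple) against control for each silenced mRNA, from the edgeR fit with batch as a term; bars are 95% intervals and filled points passed at an adjusted p under 0.05. The 12S point of ATP8 (0.75) stands highest and the 16S point of ND2 (-0.36) lowest.

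Ordered by mean, 12S ran from ATP8 (1099 ± 150 CPM, SD, n = 4) over ATP6, COX2, COX3, ND5, COX1, ND1, ND4L, CYTB, control and ND3 to ND2 (541 ± 24.2 CPM, SD, n = 3). Only the steps from ATP8 to ATP6 and from ND3 to ND2 exceeded the larger SD of the 2 neighbours. The order of 16S was COX2, ATP8, COX3, COX1, ATP6, ND5, CYTB, control, ND3, ND4L, ND1 and ND2, from 4767 ± 440 CPM (SD, n = 3) to 2920 ± 310 CPM (SD, n = 3), and only the step from ND5 to CYTB exceeded the larger SD. Grouped by respiratory complex, a grouping the study uses but chosen here after the values were seen, 12S differed between the ATP synthase and complex I treatments by 0.60 (log2, 95% interval 0.53 to 0.67, 0.0493% of genes passed) and between complex IV and complex I treatments by 0.29 (0.23 to 0.36, 0.0691% passed). For 16S these differences were 0.38 (0.31 to 0.45) and 0.42 (0.36 to 0.49). Between the ATP synthase and complex IV treatments, 12S differed by 0.31 (0.23 to 0.39, 0.0395% passed). The 16S difference of -0.04 (-0.12 to 0.04) was not called, and the others had edgeR adjusted p of 4.6e-06 or below. These intervals and p reflect the spread among libraries and not that among the targets of a complex. The complex I targets differed among themselves, with log2 fold changes against control from -0.25 (ND2) to 0.24 (ND5) for 12S. For 16S they ran from -0.36 (ND2) to 0.22 (ND5).

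The mean of the 11 treatments set against control was 0.22 ± 0.05 for 12S (SE, log2, edgeR adjusted p = 0.029, where 0.261% of genes passed) and 0.09 ± 0.05 for 16S (SE, edgeR adjusted p = 0.45). The 12S call was lost when control replicate 1, 2 or 4 was left out (0.20 to 0.21, edgeR adjusted p up to 0.24). All treated cells received a morpholino and the control cells none. In this contrast, silencing and the presence of a morpholino cannot be told apart. The rRNAs differed between batches in opposite directions. In batch 2, 12S was lower by a log2 difference of -0.15 ± 0.03 (SE, edgeR adjusted p = 3.2e-06) and 16S higher by 0.09 ± 0.03 (SE, edgeR adjusted p = 0.0018), in a term that passed for 57.3% of genes. No treatment's effect on either rRNA differed between batches past the test, in which 0% of tests passed. The batch 2 minus batch 1 term for 12S was nevertheless negative in every treatment, from -0.27 (ATP8) to -0.0047 (COX3). These terms share the same control libraries. For ATP8 the edgeR unadjusted p was 0.033 for 12S and 0.035 for 16S. The absence of calls does not show that the effects were equal in both batches.

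The ratio of 12S to 16S counts is free of library scaling. Equal numbers of both molecules would give a higher count for the longer 16S, and per kilobase the ratio ranged from 0.240 to 0.440 over the 46 libraries. The raw count ratio was 0.188, 0.190, 0.166 and 0.163 in control replicates 1 to 4. It was 0.250, 0.263, 0.223 and 0.221 upon ATP8 silencing, 0.225, 0.243, 0.197 and 0.198 upon ATP6 silencing and 0.253, 0.269, 0.199 and 0.198 upon ND1 silencing. All libraries of these 3 groups lay above all controls. Upon ND4L silencing the ratios of 0.210, 0.221, 0.187 and 0.188 each lay above the controls of the same batch, as did all 3 libraries upon ND2 and upon COX2 silencing.

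Within batch, against control, the log2 ratio was higher by 0.44 upon ATP8, by 0.37 upon ND1, by 0.29 upon ATP6, by 0.19 upon ND4L, by 0.12 upon ND2 and by 0.10 upon COX2 silencing. Each of these had p = 0.0556 in a two-sided exact permutation test within batch, the smallest that this number of libraries allows (adjusted p = 0.10 over 11). COX1 silencing had the lowest mean ratio, 0.167 ± 0.0151 (SD, n = 4), a log2 difference of -0.08 from control (exact permutation p = 0.11). When each condition was set against the other 11 by the same exact test, with more arrangements possible, the ratio was higher upon ATP8 silencing by 0.34 (adjusted p = 9.4e-04 over 12) and upon ND1 silencing by 0.27 (adjusted p = 0.014), and lower upon COX1 silencing by -0.22 (adjusted p = 0.040). The ND1 and COX1 calls were lost when labels were permuted across batches (adjusted p of 0.062 and 0.17). For ATP6, at 0.18, the adjusted p was 0.11. The test against the other 11 permutes single libraries, although libraries of a condition lie close together. Its p therefore reflects the spread among libraries and not that among the 12 conditions. The 12 tests also share libraries and are not independent. Over the 12 conditions together, condition accounted for 90.9% of the within-batch variance of the log2 ratio (permutation p = 1e-05, the smallest that 100000 resamples can give). The 42 treated libraries together did not differ from control past the test (0.14, exact permutation p = 0.13).

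**Figure D3:**
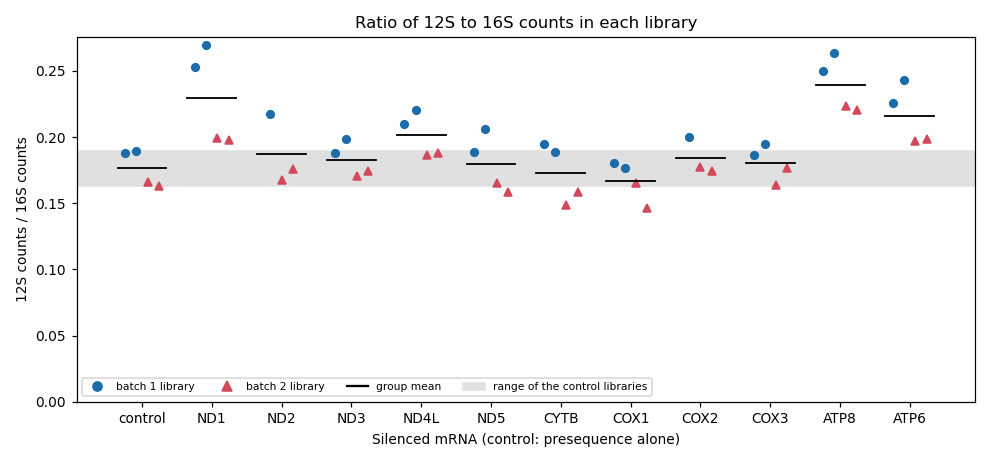
Ratio of 12S to 16S counts in each library by silenced mRNA; circles are batch 1, triangles batch 2, lines group means and the grey band the control range. The ATP8, ATP6 and ND1 libraries all lie above the band, and within each group batch 1 lies above batch 2.

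Upon COX2 silencing, where both rRNAs rose, the count ratio was 0.200 in the batch 1 library and 0.178 and 0.174 in the batch 2 libraries, all above the controls of the same batch. Upon COX3 silencing, where both rose as well, 2 libraries lay above, 1 below and 1 within the controls of their batch. Across the 46 libraries, batch-centred 12S and 16S levels correlated with Pearson r = 0.78 and Spearman rho = 0.80 (permutation p = 1e-05 for each, the smallest possible, adjusted p = 5e-05 over 5 relations). The r was 0.77 in batch 1 and 0.80 in batch 2, and 0.74 without ND2 replicates 1 and 4, the libraries farthest from the median. Both levels share each library's scaling.

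The rRNAs were next set against the 13 mRNAs of the same genome. Counts of both rRNAs over counts of the mRNAs were 0.107, 0.113, 0.111 and 0.099 in the controls. The ratio was 0.148, 0.153, 0.126 and 0.135 upon ATP8 silencing, 0.139, 0.143, 0.134 and 0.124 upon ATP6 silencing, and 0.091, 0.088 and 0.084 upon ND2 silencing. Against the other 11 conditions it was higher upon COX1 silencing (log2 difference 0.32, exact permutation adjusted p = 0.018) and ATP8 silencing (0.30, adjusted p = 0.030), and lower upon ND2 (-0.41, adjusted p = 0.0020) and ND1 silencing (-0.29, adjusted p = 0.031). Against control, the log2 difference upon COX1 silencing was 0.40 with all mRNAs and 0.09 with the COX1 mRNA itself left out, while that upon ATP8 silencing stayed at 0.39 without the ATP8 mRNA. The ND2 difference was -0.27 with, and -0.17 without, its own mRNA. Each of these differences from control had an adjusted p of 0.076 or above, since the exact test cannot pass with this number of libraries.

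**Figure D4:**
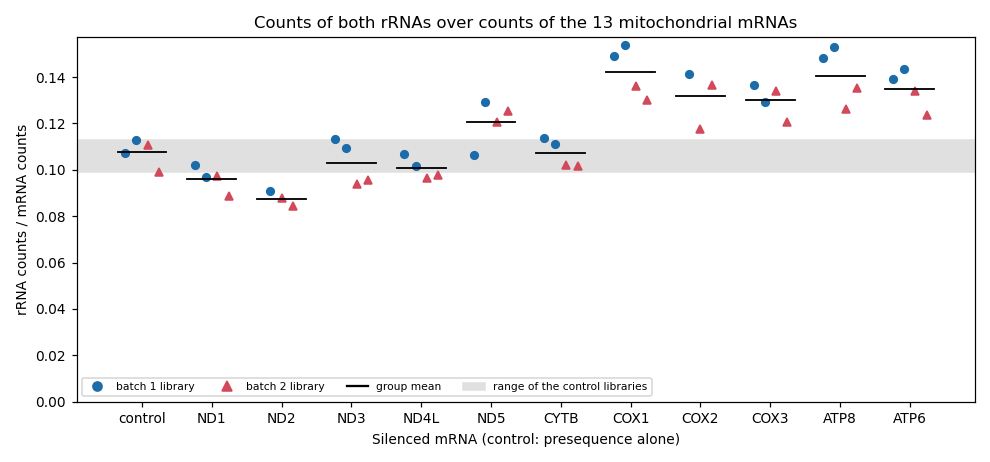
Counts of 12S and 16S together divided by counts of the 13 mitochondrial mRNAs, for each library by silenced mRNA; symbols as in the plot of levels. ATP6, ATP8 and the 3 COX groups lie above the control band and ND2 lies lowest, at 0.084 to 0.091.

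Of the tRNA genes that flank the rRNAs, 1 passed the test in 1 treatment. This was 1 of 33 tests, where 0.165% of the tests of all genes passed, and 0.0888% of genes upon ND1 silencing. MT-TL1, between the end of 16S and ND1, was at 23.6, 22.8, 25.9 and 26.1 CPM in the controls and at 4.90, 5.54, 6.40 and 7.76 CPM upon ND1 silencing (126, 128, 145 and 189 counts against 518 to 549). Every ND1 library lay below every control. The share of all genes that did so is not given here for ND1 silencing. The fall was 3.999-fold, a log2 fold change of -1.9995 ± 0.16 (SE, edgeR adjusted p = 3.2e-13). No other treatment changed MT-TL1 past the test against control. MT-ND1 itself, whose first bases form the ND1 site, rose in the ND1 libraries as given above. Upon COX3 silencing MT-TL1 was at 35.3, 37.0, 37.9 and 23.3 CPM. Its log2 fold change was 0.42 ± 0.13 against control (SE, edgeR adjusted p = 0.19). Against the mean of the other 10 treatments, ND1 among them, it was 0.73 ± 0.09 (SE, edgeR adjusted p = 1.6e-06). MT-TF and MT-TV, sequenced with 3 to 62 and 2 to 87 counts per library, were not called in any treatment, and upon ND1 silencing MT-TV differed by -1.35 ± 0.41 (SE, log2, edgeR adjusted p = 0.15). Counting of reads that span the junctions of 16S, MT-TL1 and MT-ND1 is not given in the sources used here.

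**Figure D5:**
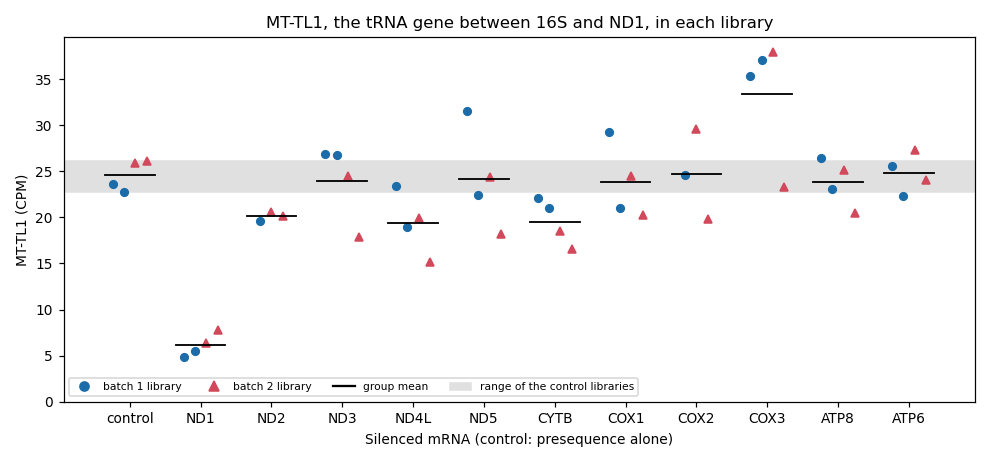
MT-TL1 level in CPM for each library by silenced mRNA; symbols as in the plot of levels. The 4 ND1 libraries lie at 4.90 to 7.76 CPM, below all other libraries.

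Mitochondrial rRNAs are made, processed, modified and assembled by proteins encoded in the nucleus. None of 44 such genes was called by edgeR in any of the 11 treatments (39 of the 484 tests, 8.06%, had an unadjusted p under 0.05, against 9.73% for all genes, and 0.165% of the tests of all genes passed), and none by DESeq2. With no filter on low counts, 5 of these tests passed, all higher. By role, 0 of 5 transcription, 0 of 4 processing, 0 of 6 tailing and decay, 0 of 4 12S modification, 0 of 5 16S modification, 0 of 5 small subunit and 0 of 15 large subunit assembly genes passed. The median log2 fold change of the 44 lay between -0.03 and 0.05 over the treatments, against medians between -0.01 and 0.00 for all genes. In each role, the gene that differed most between all treatments and control is named here with its log2 fold change. These were POLRMT, the mitochondrial RNA polymerase (0.08 ± 0.05), KIAA0391, the nuclease that cuts tRNA 5′ ends (-0.14 ± 0.07), SLIRP, which stabilises mitochondrial mRNAs (0.14 ± 0.09), TFB1M, which dimethylates 12S (0.14 ± 0.07), MRM3, which methylates 16S (0.07 ± 0.05), YBEY (0.09 ± 0.06) and MTG1 (-0.15 ± 0.07). All errors are SE, and the edgeR adjusted p were 0.34 to 0.64.

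The protein partners of the rRNAs in the ribosome were counted in the same way. Of the 29 MRPS genes, which encode proteins of the small mitochondrial subunit, and the 49 MRPL genes of the large subunit, 1 of 319 and 2 of 539 tests passed, all higher (0.313% and 0.371%, against 0.165% of the tests of all genes). An unadjusted p under 0.05 was seen in 61 and 101 of them (19.1% and 18.7%, against 9.73% for all genes). MRPL24 was higher upon ATP8 silencing (log2 fold change 0.30 ± 0.06, SE, edgeR adjusted p = 0.040) and upon CYTB silencing (0.29 ± 0.06, SE, edgeR adjusted p = 0.022), and MRPS16 upon CYTB silencing (0.17 ± 0.04, SE, edgeR adjusted p = 0.044). These genes were named after their values were seen. The treatment medians of the MRPS genes ran from -0.004 to 0.13 and those of the MRPL genes from 0.004 to 0.13 (log2), each highest upon ND1 silencing, against medians of -0.005 to 0.002 for all genes.

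Among 10427 genes with a mean of at least 10 CPM, the one whose batch-centred level over the 46 libraries was most like 12S was 16S, and the reverse, with r = 0.78 in both cases. Next for 12S came MT-TP (the proline tRNA gene, r = 0.71), YARS (the cytosolic tyrosyl-tRNA synthetase, 0.59), YBEY (a member of the small subunit assembly list, 0.54) and ZMAT2 (a splicing factor, 0.54). For 16S they were MT-TN (the asparagine tRNA gene, 0.71), MT-TP (0.69), MTMR12 (a myotubularin-related protein, 0.62) and BCAT1 (a branched-chain aminotransferase, 0.55). These are descriptions over 46 libraries that share conditions, batches and scaling. Of the mitochondrial mRNAs, MT-ND5 (0.53) and MT-ND4 (0.49) were most like 16S and MT-CYB (0.45) most like 12S, while MT-ND2 had r = -0.51 with 16S and MT-ATP6 r = -0.43 with 12S.

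As a measure of RNA retained without a poly(A) tail, nuclear RNAs were examined. Of 8 abundant nuclear RNAs that are normally not polyadenylated, 5 (RN7SK, RN7SL1, RMRP, RPPH1 and SCARNA2) were at 0 in every library. RN7SL2, an RNA of the signal recognition particle, ranged from 12.2 to 378 CPM, and SNORD3A and SNORA73B reached at most 1.67 and 1.94 CPM. None of these 3 was called in any treatment. Why the 5 were at 0 was not tested, and the handling of reads matching several places is not given. RN7SL2 had a median of 69.4 CPM over the libraries, against 71.2 CPM for the sum of the 8. The sum below therefore follows mostly RN7SL2. Summed, the 8 ranged from 14.0 to 126 CPM in the controls, 32.8 to 73.2 CPM upon ATP8, 29.4 to 65.9 CPM upon ATP6, 33.1 to 119 CPM upon COX3, 20.5 to 135 CPM upon COX1, 21.0 to 71.1 CPM upon ND2 and 91.5 to 242 CPM upon COX2 silencing. The ATP8, ATP6, COX3 and ND2 libraries lay within the control range, as did those of ND3 and ND4L. The COX1 and COX2 ranges reached above it, as did those of ND1 (up to 156 CPM), ND5 (303 CPM) and CYTB (380 CPM). The part of such RNA in the rRNA values was not tested. Over the 46 libraries the batch-centred sum had Pearson r = 0.10 and Spearman rho = 0.11 with 12S (permutation p of 0.51 and 0.46, adjusted p of 0.58 and 0.46 over 5 relations) and r = 0.27 and rho = 0.19 with 16S (permutation p of 0.070 and 0.20, adjusted p of 0.17 and 0.27). Within batch 2 these r were 0.30 and 0.48, and within batch 1 -0.23 and -0.08. Without ND5 replicate 3 and COX2 replicate 3, the libraries farthest from the median, r was 0.04 and 0.21. After the mean of each condition in each batch was subtracted, r was 0.59 for 12S and 0.43 for 16S. Among libraries of the same condition and batch, those with a higher sum, mostly RN7SL2, tended to hold more of both rRNAs. This is a description over at most 2 libraries per condition and batch, which share scaling, and has no p.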

How the data were processed

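Gene counts of 46 poly(A)-enriched libraries from HEK293T cells were used as the authors deposited them, as raw counts of 58735 genes without normalization. Genome GRCh38.p12, R 4.3.0, DESeq2 1.40.2 and limma 3.56.2 appear in the submitters' processing notes; the aligner, the counter and the handling of strand and of reads matching several places are not given in the sources used here. Gene positions and lengths, in bases, came from the same deposited table. All 58735 gene IDs are in GENCODE v29, 58724 with the same start and end, and sequences were read from its transcripts. The members, gene lists and comparisons were chosen with earlier results of these data known.

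Counts were fitted with edgeR 4.0.16 in R 4.3.3 (quasi-likelihood F test, TMM, filterByExpr with a minimum count of 10), which left 20272 genes. Condition and batch were terms, all 46 libraries shared one fit, and p-values were adjusted by Benjamini-Hochberg over all genes of a comparison and called below 0.05. Ratios were compared by exact permutation within batch in Python, on log2 count ratios from which the batch mean over all libraries had been subtracted, adjusted over 11 or 12 comparisons. The rule for named genes took the 2 rRNAs, the flanking tRNA genes, the MTRNR2L sum, the targeted mRNAs, the 5 genes with a mean of at least 10 CPM most correlated with each rRNA, up to 12 factor genes past the test and the most different gene of each role list. In a simulation of the ATP8 comparison over 20272 genes, 98 of 100 genes changed by 0.5 and 100 of 100 changed by 1 (log2) were called in the right direction, with 18 calls among unchanged genes. The changed genes were drawn from those with a mean of at least 10 CPM. Simulated spread followed the trend over all genes, without a spread particular to each gene. These shares therefore need not hold for the measured counts.

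Same-numbered libraries of control and treatment deviated together from their group means (r of 0.12 to 0.33 in 42 of 42 pairs), which follows the batches the study describes; within a batch the correlations were -0.01 to 0.05. Libraries of 1 group differed by more than sampling noise (chi-square per degree of freedom of 3.47 to 23.4 in 66 pairs). The study's methods describe them as biological replicates. Alternatives covered the batch term, a replicate block, DESeq2 1.42.0, RLE factors, filters with no minimum and with a minimum count of 50, library sizes from nuclear genes, COX3 replicate 4 thinned, each batch alone, only the libraries compared and each library left out in turn. Library totals of 18876395 to 100698084 counts left at least 11810 reads behind each rRNA value.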

Additional observations from a re-analysis of the deposited data

Results flagged for a closer look

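A library far from the others of its group was sought in 50 tests, each of 1 measure in 1 group of 4 libraries. The measures were the 12S, 16S and MT-TL1 levels, the 12S to 16S ratio and the rRNA to mRNA ratio. They share the same libraries, so the tests are not independent. In these tests 1 library stood out, where chance gives about 1 in 20. Upon ND1 silencing, 16S was at 3758 CPM in replicate 3, and the other 3 libraries lay between 2984 and 3060 CPM. The gap was 0.902 of the range of the group, above Dixon's 95% critical value. The 12S rRNA of that library, at 748 CPM, lay inside the range of its group. Without it the 16S difference upon ND1 silencing was -0.28 on the log2 scale, in place of -0.21, and was again not called (edgeR adjusted p = 0.16).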

How the results depend on the processing

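The 12S calls upon ATP8, ATP6, COX2 and COX3 silencing held in every fit that left out 1 library, and the replicate block changed the call of none of the 22 level tests. With the replicate block, 116 genes passed for the mean of the treatments and 288 over the 12 conditions, against 53 and 94; the counts were 221 and 608 with DESeq2, 320 and 1049 with no filter, 100 and 122 with a minimum count of 50, and 1 and 30 with no batch term. Of the 22 rRNA tests, 8 passed as higher and 1 as lower. These were 2 and 0 with no batch term, 1 and 0 in batch 2 alone, 13 and 3 with no filter, and 11 and 3 when only the libraries compared were fitted.

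With no batch term, calls were lost at log2 values of 0.30 (16S, ATP8), 0.29 (16S, COX1), 0.42 and 0.36 (12S and 16S, COX2), 0.32 and 0.29 (12S and 16S, COX3), -0.34 (16S, ND2) and 0.22 (12S, mean of treatments). In batch 2 alone they were lost at 0.42 (12S, ATP6), 0.18 (16S, ATP8), 0.25 (16S, COX1), 0.39 and 0.29 (12S and 16S, COX2), 0.32 and 0.27 (12S and 16S, COX3) and -0.35 (16S, ND2), and in batch 1 alone at 0.33 (12S, COX3). With no filter, calls were gained at 0.23 (16S, ATP6), 0.21 (12S, COX1), 0.17 and -0.21 (12S and 16S, ND1), -0.24 (12S, ND2) and 0.24 and 0.22 (12S and 16S, ND5). With only the libraries compared they were gained at 0.23 (16S, ATP6), -0.21 (16S, ND1), -0.26 (12S, ND2) and 0.24 and 0.22 (12S and 16S, ND5), and with DESeq2 at 0.24 (12S, ND5). Signs turned, for values that were not called, at 0.053 and 0.022 (12S and 16S, ND3, batch 1 alone), -0.026 (12S, CYTB, batch 2 alone), 0.024 (12S to 16S ratio, CYTB, batch 1 alone), -0.020 (the same ratio, ND5, batch 2 alone) and 0.029 (rRNA to mRNA ratio, CYTB, COX1 mRNA left out). With labels permuted across batches the ratio calls at -0.22 (COX1) and 0.27 (ND1) were lost. With no filter 5 factor gene tests passed, against 0. The causes were not tested.

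Leaving out 1 library at a time gave log2 ranges of 0.26 to 0.38 (16S, ATP8), 0.27 to 0.33 (16S, COX1), 0.30 to 0.43 (16S, COX2), 0.26 to 0.33 (16S, COX3), -0.41 to -0.31 (16S, ND2), 0.20 to 0.27 (12S, mean of treatments), 0.18 to 0.29 (12S, ND5), -0.017 to 0.061 (12S, CYTB), -0.044 to 0.029 (12S, ND3), -0.0071 to 0.037 (12S to 16S ratio, ND5) and -0.026 to 0.031 (rRNA to mRNA ratio, CYTB). With 1 control library left out, 4 to 8 rRNA tests passed as higher and 0 to 1 as lower. Besides these, 356 other values kept direction and call, and 502 did so with 1 library left out. Both counts include ratio tests against control whose call could not change. With at most 4 libraries a condition, an exact test of a ratio against control cannot pass, so its p says nothing of stability.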
